A study of Mus musculus with 2 samples.

Results

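Bidirectional promoters were examined in the Zfp322a ChIP-seq libraries of mouse ES cells. A bidirectional promoter was taken as the DNA between a pair of protein-coding genes on opposite strands that are transcribed away from each other, with their outermost annotated 5′ ends (transcription start sites, TSSs) at most 1000 bp apart, plus 500 bp into each gene. In the GENCODE annotation of the mouse genome build mm9, 808 pairs met this rule. They form 791 regions, 17 of which hold more than 1 pair, and involve 1599 of 22367 coding genes. The rule used the annotation alone and no read. The distance between paired TSSs ran from 1 to 987 bp with a median of 141 bp (quartiles 72.5 and 271 bp), and the regions were 1002 to 1988 bp long. For comparison, 17868 coding genes with no other gene's 5′ end within 2000 bp were taken as one-sided promoters. Each had a window of 1142 bp, the median length of the bidirectional regions. It took in the first 500 bp of the gene, with the rest before the TSS, whereas a bidirectional region holds the first 500 bp of both genes.

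Chromatin came from untreated E14 cells, a mouse ES cell line whose background strain the labels give as C57BL/6, grown in GMEM with serum and LIF. It was precipitated with anti-ZNF322 antibody (sc-102205), here called the Zfp322a ChIP, or with anti-rabbit IgG (sc-2027) as the control. Each antibody has 1 library, read on an Illumina Genome Analyzer, so no value below has a replicate check, and each comparison is between these libraries and not between conditions. The files hold no expression values, so the identity of the cells was not checked with markers.

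At a bidirectional promoter, RNA polymerase II starts transcription in both directions from the same open stretch of DNA. Such promoters are typically CpG islands without a TATA box, and many of them drive housekeeping genes of DNA repair, RNA processing and the mitochondrion. The genes of a pair are often, but not always, expressed together. Zfp322a is a C2H2 zinc finger protein of the nucleus that is expressed in the inner cell mass and in ES cells.

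The sequences between the TSSs of 9 pairs are shown because 7 of them lie in regions with the largest excess of Zfp322a reads and the last ones, at *Gatc*/*Triap1* and *Sgce*/*Peg10*, in the regions with the clearest lack of it. All are the plus strand of mm9, read 5′ to 3′, with the first gene of each name to the left and the second to the right, and none overlaps an annotated exon. Capitals mark exact matches on either strand to any of 10 short promoter motifs, which are spelled out with the motif results below.
Cdc27/Myl4, chr11:104411935-104411976: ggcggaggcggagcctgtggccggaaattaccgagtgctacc
Sdhaf2/Cpsf7, chr19:10599700-10599733: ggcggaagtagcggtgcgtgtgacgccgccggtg
Toe1/Mutyh, chr4:116480246-116480327: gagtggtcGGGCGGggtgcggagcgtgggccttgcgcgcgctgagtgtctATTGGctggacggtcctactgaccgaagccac
Elavl1/Ccl25, chr8:4325101-4325209: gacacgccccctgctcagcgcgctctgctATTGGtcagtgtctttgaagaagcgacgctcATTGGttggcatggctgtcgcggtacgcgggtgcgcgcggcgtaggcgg
1300017J02Rik/Topbp1, chr9:103207413-103207544: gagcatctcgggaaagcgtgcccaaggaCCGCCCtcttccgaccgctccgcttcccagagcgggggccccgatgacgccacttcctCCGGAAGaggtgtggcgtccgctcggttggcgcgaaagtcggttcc
Fam35a/Glud1, chr14:35123690-35123912: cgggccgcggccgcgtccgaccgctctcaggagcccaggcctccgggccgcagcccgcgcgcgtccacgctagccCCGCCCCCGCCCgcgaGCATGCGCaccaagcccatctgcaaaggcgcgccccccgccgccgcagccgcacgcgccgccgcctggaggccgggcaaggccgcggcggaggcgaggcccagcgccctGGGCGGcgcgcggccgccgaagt
Dtl/Ints7, chr1:193399414-193399641: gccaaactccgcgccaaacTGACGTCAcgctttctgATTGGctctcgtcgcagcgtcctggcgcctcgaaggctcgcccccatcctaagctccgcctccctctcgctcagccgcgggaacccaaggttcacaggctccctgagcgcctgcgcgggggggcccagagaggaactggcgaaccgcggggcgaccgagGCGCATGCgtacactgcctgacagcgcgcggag
Gatc/Triap1, chr5:115791188-115791233: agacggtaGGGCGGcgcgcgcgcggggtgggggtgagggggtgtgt
Sgce/Peg10, chr6:4697205-4697305: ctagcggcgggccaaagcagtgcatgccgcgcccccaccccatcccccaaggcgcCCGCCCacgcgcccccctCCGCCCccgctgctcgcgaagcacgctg

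The short stretches at *Cdc27*/*Myl4* and *Sdhaf2*/*Cpsf7* held none of the 10 motifs, whereas *Dtl*/*Ints7* had an NRF1, an NFY and a CRE match and *Fam35a*/*Glud1* an NRF1 match among SP1 matches. The stretch at *Gatc*/*Triap1* and that at *Sgce*/*Peg10* held SP1 matches only. Over all regions, the DNA between the TSSs had a median GC content of 62.9%.

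Only reads whose mapping quality, a score for how surely a read belongs to its place, was 25 or higher were counted after each was moved 50 bp towards the middle of its fragment. The Zfp322a library gave 4148324 such reads on the chromosomes used and the IgG library 3875599, a ratio of 1.07. The fold per read is the ratio of Zfp322a to IgG reads divided by this ratio, so that 1 means no excess over IgG. Its 95% interval is the exact conditional binomial (Clopper-Pearson) interval and, like all intervals here, covers counting error only.

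Zfp322a reads were in excess over IgG at most bidirectional promoters. The regions held 14208 Zfp322a reads and 7668 IgG reads in all, or 14.8 and 7.996 reads per kb. The pooled fold per read was 1.73 (95% interval 1.68 to 1.78). Single regions held 0 to 54 Zfp322a reads and 0 to 30 IgG reads. Of the 791 regions, 685 had a fold above 1 and 99 a fold below 1, while 7 held no read of either library. Among the 744 regions with at least 10 reads of both libraries together, the median fold was 1.70, with quartiles of 1.26 and 2.27. With the same limit, the median fold was 1.49 over all coding promoters (13212) and 1.43 over one-sided promoters (9512). A fold above 1 at most promoters was therefore not particular to bidirectional ones. The excess was thus modest and spread over many pairs, and most regions held too few reads to be told from a fold of 1 on their own: the interval lay wholly above 1 in 175 regions (22.1%) and wholly below 1 in 2 (0.253%). Over all coding promoters these shares were 9.89% and 0.447%, and over one-sided promoters 7.99% and 0.47%. They depend on the number of reads, which was lower there.

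**Figure D1:**
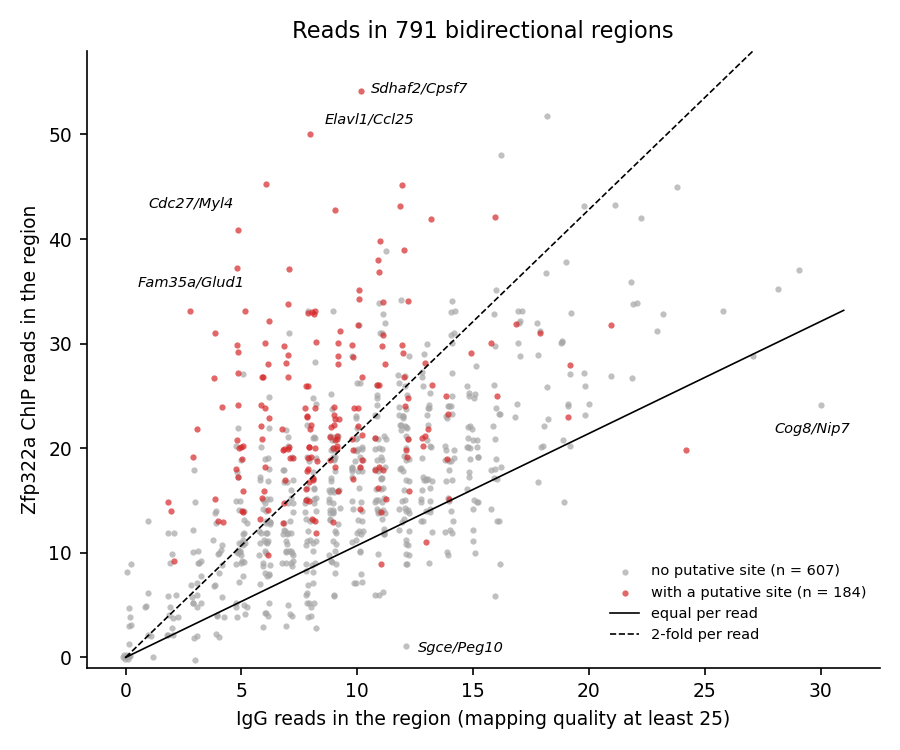
Zfp322a reads (vertical axis) against IgG reads (horizontal axis) in each of the 791 bidirectional regions, with regions that hold a putative binding site in red, points shifted slightly to part ties, and lines for equal reads per library and for a fold of 2. Most points lie above the line of equality (685 regions above a fold of 1), and *Sdhaf2*/*Cpsf7* with 54 against 10 reads is the highest.

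Using a fold of at least 2 as the threshold, 266 of the 744 regions (35.8%) were higher in the Zfp322a library and 6 were at least 2-fold lower. Over all coding promoters the same rule gave 31.1% higher and 3.52% lower, and over one-sided promoters 29.4% higher and 4.05% lower. The share of bidirectional regions called higher was therefore close to the background, whereas few of them were called lower. Bidirectional regions also held more reads than one-sided promoters, and the part of read number in both shares was not tested.

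The larger pooled fold was also seen against one-sided promoters of like GC content, but the gap was narrow. One-sided promoters had a pooled fold of 1.43 (95% interval 1.42 to 1.44). With their GC content weighted to that of the bidirectional regions in bins of 5 percentage points, the fold was 1.49. The quotient of bidirectional over one-sided folds within these bins (Mantel-Haenszel, with the Robins-Breslow-Greenland interval) was 1.17 (95% interval 1.13 to 1.20). Between regions, the Zfp322a share of reads varied more than counting error gives, by a chi-square of 1.35 per degree of freedom over bidirectional and 1.57 over one-sided promoters, so the interval is narrower than the spread between regions warrants.

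The difference was present in each well filled GC bin. At a GC content of 50 to 55% the fold was 1.84 in 140 bidirectional regions and 1.43 in one-sided promoters. At 55 to 60% the values were 1.74 (261 regions) and 1.49, and at 60 to 65% they were 1.68 (234 regions) and 1.50. In these bins the fold of bidirectional regions did not grow with GC content. At 65 to 70% the folds were 1.79 (99 regions) and 1.51, and at 70 to 75% the interval of the 26 bidirectional regions, 1.36 to 1.86, held the one-sided fold of 1.47.

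**Figure D2:**
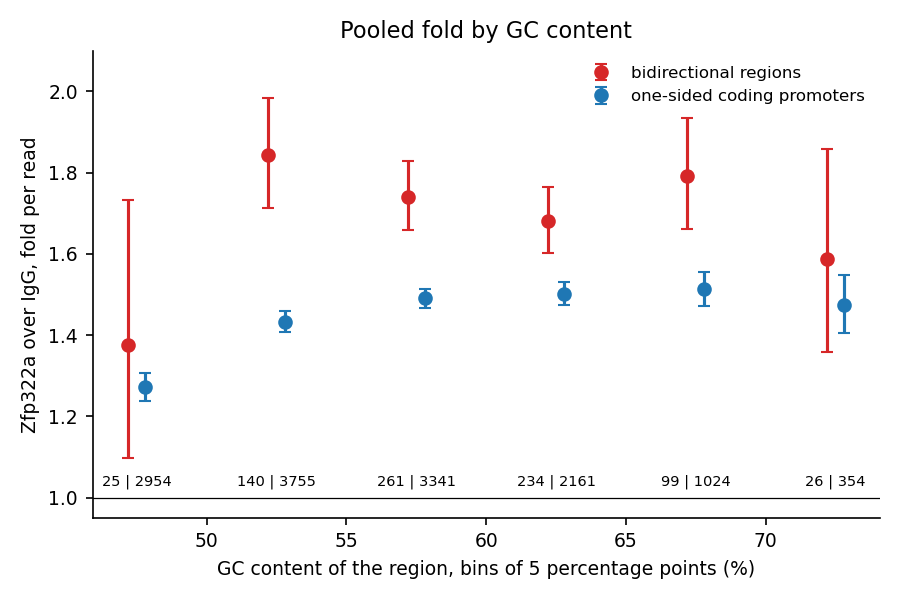
Pooled fold per read (vertical axis) by GC content of the region (horizontal axis, percent, bins of 5 points) for bidirectional and one-sided promoters, with 95% intervals for counting error and, along the base, the number of bidirectional and one-sided promoters in each bin. Bidirectional regions lie above one-sided promoters from 50 to 70%, with 1.84 against 1.43 at 50 to 55%.

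GC content is not the only feature in which the classes differ. A one-sided window holds DNA before the TSS in place of a partner gene. At a GC content of at least 50%, the one-sided fold was 1.37 from 200 to 500 bp before the TSS. In the first 500 bp of the gene it was 1.52. The part of this difference in the quotient was not tested. Within strata of the CpG ratio, the observed over the expected number of CpG dinucleotides, the quotient was 1.11, and among CpG-rich promoters alone (GC content of at least 50% and CpG ratio of 0.6 or more, a class set up once the data had been seen) it was 1.11 (95% interval 1.08 to 1.15). IgG reads were denser as well, at 7.996 per kb in bidirectional regions against 6.46 in one-sided promoters of like GC content, and Zfp322a reads were at 14.8 against 10.3 per kb. The part of the IgG level in the difference was tested only by strata of GC content and IgG reads, in which the quotient was 1.29, and there the IgG reads that set the strata also enter the fold.

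The fold varied little with the distance between the TSSs. The 293 regions with TSSs 0 to 100 bp apart had a pooled fold of 1.68, the 331 with over 100 and up to 300 bp a fold of 1.77, and the 167 with longer distances a fold of 1.75. Against one-sided promoters of like GC content, the quotients were 1.13 (95% interval 1.08 to 1.19), 1.19 (1.14 to 1.24) and 1.18 (1.12 to 1.25). These intervals overlap, so the classes were not told apart.

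The excess was highest between the TSSs and decayed into both genes. Between the TSSs there were 16.6 Zfp322a and 8.10 IgG reads per kb, a fold of 1.91 (95% interval 1.79 to 2.04). The first 500 bp of the genes had a fold of 1.69 (1.64 to 1.75), the stretch from 500 to 1500 bp into the genes 1.29, and that from 1500 to 5000 bp 1.11. The interval between the TSSs and that of the first 500 bp did not overlap. One-sided promoters with a GC content of at least 50% showed a like decay on the gene side, with 1.52 in the first 500 bp, 1.25 from 500 to 1500 bp and 1.09 from 1500 to 5000 bp. On their upstream side the fold was 1.60 in the 200 bp before the TSS and 1.14 from 500 to 1500 bp before it.

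In bins of 100 bp, the fold peaked just before the TSS where the genes of a pair lie close together. For TSSs 0 to 100 bp apart, the 100 bp before each TSS held 25.6 Zfp322a and 11.7 IgG reads per kb, a fold of 2.04 (95% interval 1.86 to 2.23). For TSSs over 100 and up to 300 bp apart the same bin had a fold of 2.15 (1.95 to 2.38), and for longer distances 1.84 (1.58 to 2.14). At TSSs 0 to 100 bp apart the first 100 bp of the gene had 1.92 (1.75 to 2.11), which overlaps the value before the TSS. One-sided promoters with a GC content of at least 50% also had their highest fold, 1.66, in the 100 bp before the TSS. Pairs with wide gaps showed a broad, uneven excess in place of a peak just before the TSS. Their highest bin, 300 to 400 bp before the TSS, had a fold of 2.14 (1.81 to 2.52), beside bins of 1.62 and 1.61. At these pairs the excess reached across the gap into the partner, where single bins were uneven. From 500 to 1000 bp before a TSS the folds of the bins ran from 1.53 to 1.91, and from 1000 to 1200 bp they were 1.46 and 1.496. One-sided promoters had 1.13 to 1.22 from 500 to 1000 bp before the TSS. In pairs with close TSSs the bins of both genes share reads. Such reads were counted for each gene, so these intervals are narrower than counting error gives.

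**Figure D3:**
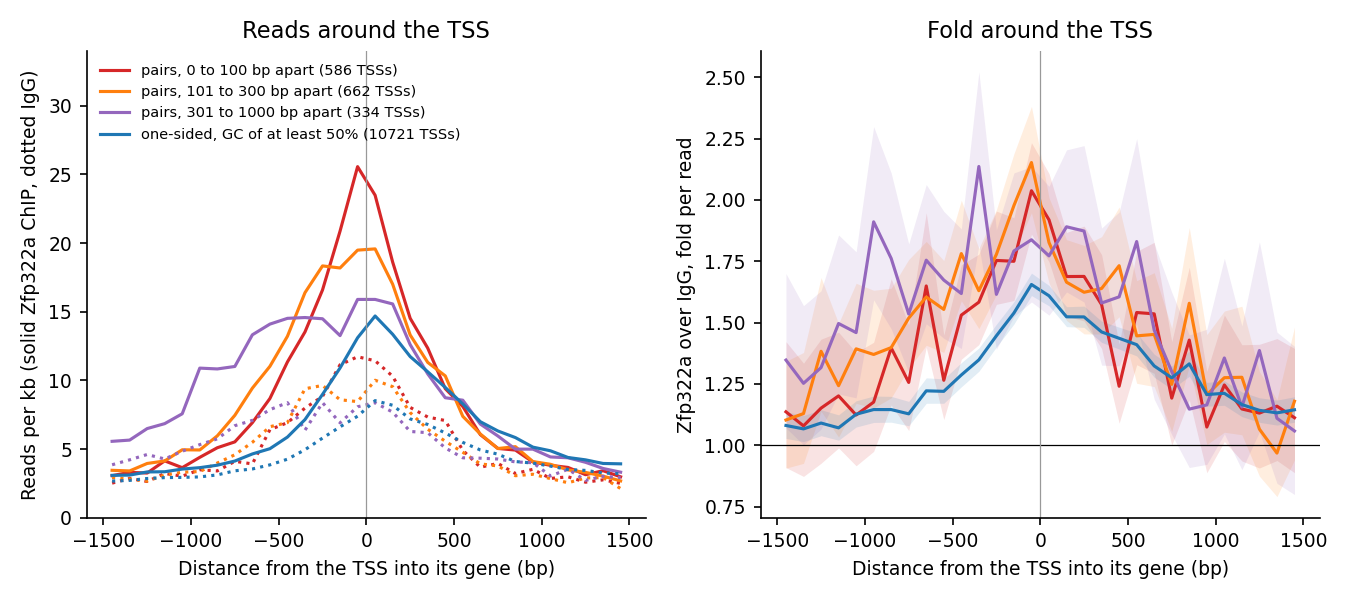
Reads per kb (left, solid lines for the Zfp322a ChIP and dotted lines for IgG) and fold per read (right, shaded 95% intervals for counting error) in bins of 100 bp by distance from the TSS (horizontal axis, bp, negative values before the TSS), for pairs in 3 classes of distance and for one-sided promoters with a GC content of at least 50%. In pairs 0 to 100 bp apart Zfp322a reads peak at 25.6 per kb just before the TSS. The folds of the pairs up to 300 bp apart are 2.04 and 2.15 there, above the one-sided curve. Reads shared by the bins of both genes of a pair count for each, which makes the intervals of pairs too narrow.

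Putative binding sites were rebuilt from the reads as stretches where reads extended to 300 bp piled up to at least 9 in the Zfp322a library and at least 3 times the IgG height. The heights were not scaled for the different sizes of the libraries. Of 3875 such sites in the genome, 197 overlapped bidirectional regions. A site was found in 184 of the 791 regions, or 23.3% (95% Clopper-Pearson interval 20.4 to 26.4), against 10.3% of all coding promoters and 8.28% of one-sided promoters. At the GC content of the bidirectional regions, 13.8% of one-sided promoters had a site, and at their CpG ratio 16.3%. The 293 regions with TSSs 0 to 100 bp apart, which are shorter than the one-sided windows, had a site in 23.9%. Because the threshold is a number of reads, it is more easily met where both libraries are denser. The part of read density in the share was not tested. Nor was that of the window, which holds the start of a single gene in one-sided promoters and of both genes in bidirectional regions. The 754 intervals that the authors deposited are far fewer than the rebuilt sites and were not taken as a full list. They overlapped 54 bidirectional regions (6.83%), 2.97% of all coding promoters, 2.29% of one-sided promoters and 3.84% of one-sided promoters of like GC content. Of these 54 regions, 46 also had a rebuilt site.

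Most sites were low. For each of the 184 regions the highest site that overlaps it was taken. The median height was 11 reads, in a range of 9 to 33, against a median IgG height of 3, and the median fold of heights was 4.5. Of these 184 sites, 83 had a height of only 9 or 10 reads and 13 reached 20 reads.

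The summits of these sites lay between the TSSs about as often as the length of that stretch gives. They lay between them in 37 of the 184 regions (20.1%), where that stretch made up 18.5% of the length of these regions. In 84 regions the summit lay inside the gene on the minus strand and in 63 inside that on the plus strand. The median distance to the midpoint was 205 bp, and 71 summits (38.6%) were within 150 bp of it. In regions of at least 1002 bp an even spread would place fewer there, so the summits leaned towards the midpoint. In single regions these positions rest on few reads.

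The 12 pairs with the highest lower bound of the fold all had a site, and 11 of them lay in intervals deposited by the authors. In these pairs no summit lay between the TSSs: 6 were in the minus-strand gene and 6 in the plus-strand gene. The sequences of 7 of these pairs are given above, and 10 of the 12 are described here. As they were picked for their excess, their folds are a description.

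*Sdhaf2*, which encodes an assembly factor of succinate dehydrogenase, and *Cpsf7*, a subunit of the mRNA cleavage factor, had the most Zfp322a reads of all regions, 54 against 10 in the IgG library. The fold was 5.04 (95% interval 2.54 to 11.1), and the site on chr19:10599600-10600364 had heights of 33 and 3 reads with its summit in *Cpsf7*. At *Cdc27*, a subunit of the anaphase-promoting complex, and *Myl4*, a myosin light chain of atrial and embryonic muscle, there were 41 Zfp322a and 5 IgG reads. The fold was 7.66 (3.03 to 24.8), and heights of 29 and 2 reads were reached inside *Cdc27*. *Fam35a*, which encodes a shieldin subunit that acts at DNA breaks, shares its promoter with *Glud1*, the mitochondrial glutamate dehydrogenase. The fold there was the highest of the 12, 10.3 (3.22 to 52.4), from 33 Zfp322a reads and 3 IgG reads.

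Values of 3 further pairs follow. *Toe1*, a deadenylase gene, and *Mutyh*, the adenine DNA glycosylase of base excision repair, had 43 Zfp322a and 9 IgG reads (fold 4.46, 95% interval 2.15 to 10.4), with heights of 27 and 5 reads in *Toe1*. *Topbp1*, an activator of the checkpoint kinase Atr, and its partner *1300017J02Rik* had 37 and 7 reads (fold 4.94, 2.17 to 13.1). *Dtl*, the substrate receptor of a ubiquitin ligase that removes the licensing factor Cdt1, and *Ints7*, an Integrator subunit, had 27 and 4 reads (fold 6.31, 2.20 to 24.8). By the rule that picked them, all of these pairs have an interval above 1.

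The others described were of mixed function. *Elavl1*, which encodes the mRNA-stabilising protein HuR, and the chemokine gene *Ccl25* had 50 Zfp322a and 8 IgG reads (fold 5.84, 95% interval 2.75 to 14.3), with the summit in *Elavl1*. *Ttll5*, a tubulin glutamylase gene, and *0610007P14Rik* had 33 and 5 reads (fold 6.17, 2.39 to 20.2). The translation initiation factor gene *Eif5b* and *Txndc9*, a thioredoxin-like protein gene, had 30 and 5 reads (fold 5.61, 2.15 to 18.5) and were the only pair of the 12 outside the deposited intervals. On the X chromosome, *Ikbkg*, the NEMO subunit of the IκB kinase, with *Fam3a* had 31 and 4 reads (fold 7.24, 2.56 to 28.2).

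The X chromosome as a whole had more Zfp322a reads, with a library ratio relative to all reads of 1.32 against 0.994 on the autosomes. The 18 bidirectional regions of the X had a pooled fold of 2.34 (95% interval 1.80 to 3.08), and one-sided promoters of the X had 2.21. Within the X the quotient at like GC content was 1.06 (0.809 to 1.40). The folds of X-linked pairs therefore carry this shift. Without the X, the pooled fold of bidirectional regions was 1.72.

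At the other end, *Sgce* and *Peg10* had 1 Zfp322a read against 12 IgG reads, a fold of 0.0779 (95% interval 0.00182 to 0.526). *Peg10*, derived from a retrotransposon, and *Sgce*, a sarcoglycan gene, are imprinted and expressed from the paternal allele. At *Gatc*, a subunit of a mitochondrial glutamyl-tRNA amidotransferase, and *Triap1*, a mitochondrial lipid transfer protein gene, there were 6 and 16 reads, a fold of 0.350 (0.112 to 0.943). These were the only regions of the 791 with an interval below 1, and the Zfp322a height stayed at 1 and 4 reads where the IgG height reached 8 and 12. Both sequences are given above. The other pairs at least 2-fold lower were *Bai3*/*Gm9884* (4 and 8 reads), *Alkbh1*/*1810035L17Rik* (4 and 8), *Nisch*/*Sema3g* (3 and 7) and *Ptchd1*/*Gm15155* (3 and 8), each with an interval that held 1. *Dram1*/*Gnptab*, of autophagy and lysosomal enzyme targeting, with 9 and 16 reads, and *Cog8*/*Nip7*, of the Golgi and of ribosome assembly, with 24 and 30 reads, had the next lowest upper bounds, and their intervals held 1 as well. The latter carried the most IgG reads of all regions.

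Of a list of 20 symbol pairs written from general knowledge of head-to-head or close neighbours, with some genes under more than 1 symbol, 8 met the rule, and 7 of these are described here. None of the 7 had a site. *Atm*, the kinase of the DNA break response, and *Npat*, an activator of histone genes, had 22 Zfp322a and 7 IgG reads and a fold of 2.94 (95% interval 1.21 to 8.14). It was the only pair of the 7 that passed a fold of 2. *Brca1*/*Nbr1*, of homologous recombination and selective autophagy, had 16 and 8 reads (fold 1.87), and *Mrps12*/*Sars2*, of the mitochondrial ribosome and mitochondrial seryl-tRNA synthesis, had 25 and 13 (fold 1.80). *Mcm4*/*Prkdc*, of the replicative helicase and the DNA-dependent protein kinase, had 23 and 14 reads (fold 1.53). *Wrap53*/*Trp53*, with the tumour suppressor p53, had 16 and 11 reads (fold 1.36). For *Rad51c*/*Tex14* (15 and 11 reads, fold 1.27) and *Cox4nb*/*Cox4i1* (20 and 15, fold 1.25) the values were near 1. The intervals of these 6 pairs held 1, so an excess was not detectable at this depth.

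Functional groups were compared by lists of gene symbols, and 258 regions held a gene of at least 1 of 16 lists. Pairs with a gene of oxidative phosphorylation, the mitochondrial respiratory chain and ATP synthase, had the highest pooled fold, 2.05 (95% interval 1.75 to 2.41), and 12 of 24 (50%) were at least 2-fold higher with 10 (41.7%) holding a site, against 35.8% and 23.3% of all bidirectional regions. Beside *Sdhaf2*/*Cpsf7*, the complex I genes *Ndufa8* (with *Morn5*, 27 Zfp322a and 5 IgG reads, fold 5.04) and *Ndufb9* (with *Tatdn1*, 24 and 6, fold 3.74) had sites. In the 59 one-sided promoters of the same list the pooled fold was 1.63, 17 of the 55 with enough reads (30.9%) were at least 2-fold higher and 9 had a site. The interval of the 24 pairs began at 1.75, just above the 1.73 of all bidirectional regions, and it leaves out the spread between regions, so a difference from other pairs was not shown.

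Pairs with a DNA repair gene had a pooled fold of 1.97 (95% interval 1.73 to 2.25), and 16 of 36 (44.4%) were at least 2-fold higher, with 11 sites (30.6%), against the same 35.8% and 23.3% of all bidirectional regions. The median of single pairs, 1.68, lay at that of all bidirectional regions (1.70), so a few pairs carried the pooled value. Beside *Mutyh*, these included *Ddb1*, of the complex that recognises ultraviolet damage (with *Dak*, 43 and 12 reads, fold 3.35), the helicase gene *Recql4* (with *Lrrc14*, 37 and 11, fold 3.14) and the mismatch repair gene *Pms2* (with *Aimp2*, 25 and 6, fold 3.89). *Alkbh1*/*1810035L17Rik* was the lowest. The 61 one-sided promoters of DNA repair genes had a pooled fold of 1.72, with 18 of the 54 that had enough reads (33.3%) at least 2-fold higher, and 7 sites.

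The other lists had pooled folds from 1.34 to 1.98, on both sides of the 1.73 of all pairs. Pools of pairs with genes of replication licensing and the cell cycle (16 pairs, fold 1.90, 3 sites), chromatin remodelling (9, 1.87, 2 sites), splicing and RNA binding (31, 1.86, 4 sites) and the cytosolic ribosome (10, 1.80, 2 sites) were slightly higher. In the same order, 18.8%, 22.2%, 12.9% and 20% of these pairs had a site, none above the 23.3% of all bidirectional regions. The cytosolic ribosome list also took *Rps6kb1*, a kinase gene named like one of a ribosomal protein. The highest pair of this list was *Zwilch*/*Rpl4* with 27 and 6 reads. Ubiquitin ligases (28 pairs, fold 1.72, 6 sites) and Zfp zinc finger genes (15, 1.72, 2 sites) were at the common value. So were vesicle transport (16, 1.70, 3 sites) and chaperones and mitochondrial import (19, 1.69, 6 sites). In the same order, 21.4%, 13.3%, 18.8% and 31.6% of these pairs had a site. Examples with a high lower bound were *Trim23* with *2410002O22Rik* (29 and 5 reads), *Copb2*, a coatomer subunit, with *4930579K19Rik* (34 and 7), *Zfp143*, itself a factor of bidirectional promoters, with *AA474408* (39 and 11) and *Hnrnpa1*, a splicing regulator, with *Cbx5*, which encodes HP1α (31 and 9).

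Lower folds were seen for the mitochondrial ribosome (16 pairs, fold 1.60, 3 sites) and solute carriers (15, 1.57, 4 sites). RNA polymerase and general transcription factors (23, 1.57, 6 sites) and the proteasome (7, 1.47, 2 sites) were lower as well. In the same order, 18.8%, 26.7%, 26.1% and 28.6% of these pairs had a site, so the site shares did not follow the folds. In the RNA polymerase list, *Gtf2h1*, a TFIIH subunit, with *Hps5* had 34 and 10 reads and a site of 22 against 4 reads, while *Polr2b*, the second largest subunit of RNA polymerase II, with *2610024G14Rik* had 29 and 27 reads. The 6 pairs with an aminoacyl-tRNA synthetase gene had the lowest fold, 1.34 (95% interval 0.987 to 1.84), and none was at least 2-fold higher. The highest of them were *Mrps12*/*Sars2* and *S100pbp*/*Yars* (30 and 19 reads), and *Kars*/*Terf2ip* had 13 and 13. With 6 pairs, this value cannot be told from that of all bidirectional regions. Pairs did not exceed the one-sided promoters of the same list throughout. The one-sided pooled fold was the higher one for chaperones and mitochondrial import (1.91), the proteasome (1.84) and splicing and RNA binding (1.92). It was also higher for RNA polymerase and general transcription factors (1.66), aminoacyl-tRNA synthetases (1.54) and the cytosolic ribosome (1.82). In the remaining lists it was lower than in the pairs. The lists were not independent, since a pair with genes of both kinds counted in each.

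**Figure D4:**
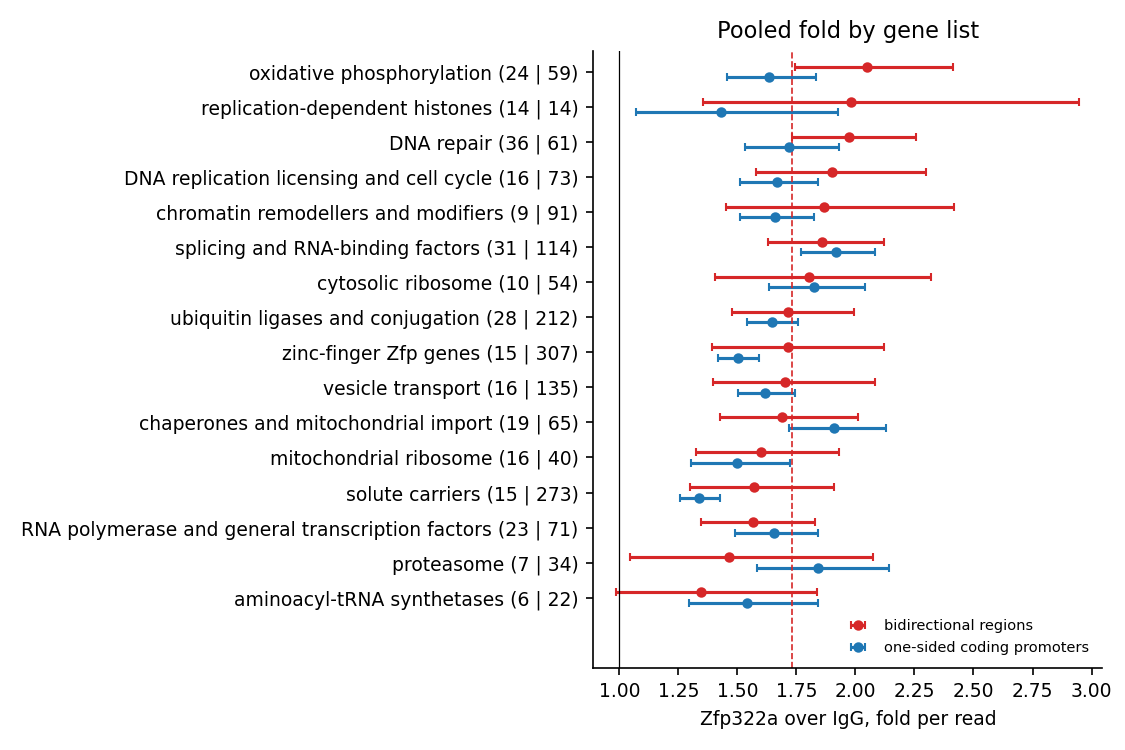
Pooled fold per read (horizontal axis) for the bidirectional regions and the one-sided promoters of each of 16 gene lists, with 95% intervals for counting error, the number of each in brackets and a dashed line at the 1.73 of all bidirectional regions. Oxidative phosphorylation is at the top with 2.05 and aminoacyl-tRNA synthetases at the bottom with 1.34, and most intervals overlap.

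Replication-dependent histone genes, which lie in clusters of near-identical copies and are often paired head to head, could hardly be measured. Their 14 regions held 87 Zfp322a and 41 IgG reads of sufficient mapping quality but 358 and 169 reads of any quality, only 6 regions had 10 reads, and none had a site. The pooled fold was 1.98 (95% interval 1.35 to 2.95). At *Hist1h2ap*/*Hist1h2br* no read passed the quality limit while 32 and 11 reads of any quality lay there, and at *Hist1h2bq*/*Hist1h2ao* the same held with 22 and 9. Reads of copies cannot be assigned to 1 of them, so these values are uncertain. *Tcte3*/*2210404J11Rik*, with 37 and 14 reads of any quality, and 4 further regions also had no read that passed.

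Of the 14 regions with no IgG read, 7 had Zfp322a reads. *Gla*, the α-galactosidase gene, with *Hnrnph2*, an RNA-binding protein gene on the X chromosome, had 9 and 0 reads. With the floor of 3 IgG reads that a count of 0 allows per region, this is at least 2.80-fold higher, but with the counting error of both libraries the lower 95% bound is 1.84. *Timm23*, a subunit of the mitochondrial import channel, with *Parg*, the poly(ADP-ribose) glycohydrolase gene, had 8 and 0 reads, at least 2.49-fold higher against the same floor and with a lower 95% bound of 1.59. Both rest on under 10 reads.

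No excess was detectable in bidirectional regions poor in CpG. In 38 bidirectional regions with a CpG ratio under 0.4 there were 204 Zfp322a and 184 IgG reads, a fold of 1.04 (95% interval 0.844 to 1.27), and 1 region had a site, *4930451C15Rik*/*P2rx6*, with 15 and 14 reads. The other 753 regions had a fold of 1.75 (1.70 to 1.80). The 8452 one-sided promoters with a CpG ratio under 0.4 had a fold of 1.12 (1.10 to 1.14), and 0.805% had a site. The interval of the 38 regions held this fold, so an excess of that size could not be detected in them. CpG-poor pairs included *Hspb2*/*Cryab*, small heat shock protein genes of muscle and lens, with 6 and 11 reads, and *Rnf151*/*Rps2* with 4 and 7. As CpG-poor regions also held fewer reads of both libraries, at 4.15 Zfp322a and 3.74 IgG reads per kb, CpG content and read density cannot be told apart here.

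Bidirectional regions were rich in short motifs of promoter factors, which the rule did not use. Exact matches on either strand were searched in windows of 1000 bp. These were centred on the midpoint or, for one-sided and all coding promoters, on the TSS. A window on the midpoint holds the TSSs of both genes, so a motif that lies near a TSS can be met at either gene. The part of this in the shares was not tested. Nor was the CpG ratio matched, and several of the motifs hold a CpG. At a GC content of 55 to 60% the median CpG ratio was 0.725 in bidirectional regions and 0.637 in one-sided promoters. Its part in the shares was not tested. An ETS motif (CCGGAAG) was present in 41.5% of bidirectional regions, against 22.1% of one-sided promoters of like GC content and 19.1% of all coding promoters. YY1 (AAGATGGCG) was present in 9.23%, against 4.23% and 3.59%, and NRF1 (GCGCATGC) in 9.61%, against 6.45% and 5.11%. A match lay between the TSSs in 128 of the 328 regions with ETS, 7 of the 73 with YY1 and 40 of the 76 with NRF1. At least 1 of these 3 motifs was found in 408 regions (51.6%), and 32 regions had both ETS and YY1. The palindrome CTCGCGAG was in 4.55% against 2.97% and 1.998%, the CRE (TGACGTCA) in 5.94% against 3.86% and 3.21%, and the ZNF143 motif (ACTACAATT) in 1.52% against 0.619% and 0.836%.

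Common motifs differed less. SP1 (GGGCGG) was found in 88.9% of bidirectional regions, 84.4% of one-sided promoters of like GC content and 59.98% of all coding promoters. For the E-box (CACGTG) the shares were 21.9%, 20.5% and 17.0%, and for NFY (ATTGG) 68.3%, 64.1% and 70.3%. TATAAA, the TATA box, was the only motif of the 10 that was less frequent than in one-sided promoters of like GC content, with 14.4% against 17.8%, and 32.1% of all coding promoters held it. In 9 regions none of the 10 motifs was found. A match says that these letters are present and not that the factor binds.

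With several of these motifs, bidirectional and one-sided promoters differed less in fold. With an ETS motif in both classes, the quotient at like GC content was 1.04 (95% interval 0.995 to 1.09), and without it in both classes 1.22 (1.17 to 1.27), and these intervals did not overlap. The fold of bidirectional regions was much the same with and without ETS, 1.71 and 1.74, while that of one-sided promoters was 1.62 with and 1.37 without. With YY1 it was 1.02 (0.927 to 1.13) against 1.18 (1.14 to 1.21) without, and with the palindrome 0.980 (0.856 to 1.12) against 1.18 (1.14 to 1.21). For the E-box the values were 1.07 (1.01 to 1.14) and 1.20 (1.16 to 1.24). These pairs of intervals did not overlap either, whereas those for NRF1, at 1.10 and 1.17, did. All cover counting error only, and the spread between regions is wider. For YY1, the palindrome and the E-box, whose intervals lie close together, a difference was therefore not shown. With a TATA box the quotient was 1.24 (1.14 to 1.35) and without it 1.16 (1.12 to 1.19), which overlap. For SP1, NFY, the CRE and ZNF143, the quotients with the motif were 1.16, 1.17, 1.13 and 1.07, with intervals that overlapped those without it. One-sided promoters with an ETS motif had a median CpG ratio of 0.683, against 0.361 without it. For YY1 these values were 0.744 and 0.420, for the palindrome 0.793 and 0.427, and for the E-box 0.604 and 0.393. In bidirectional regions they were close for ETS, at 0.779 and 0.744. Strata of GC content do not match the CpG ratio, and its part in these quotients was not tested.

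**Figure D5:**
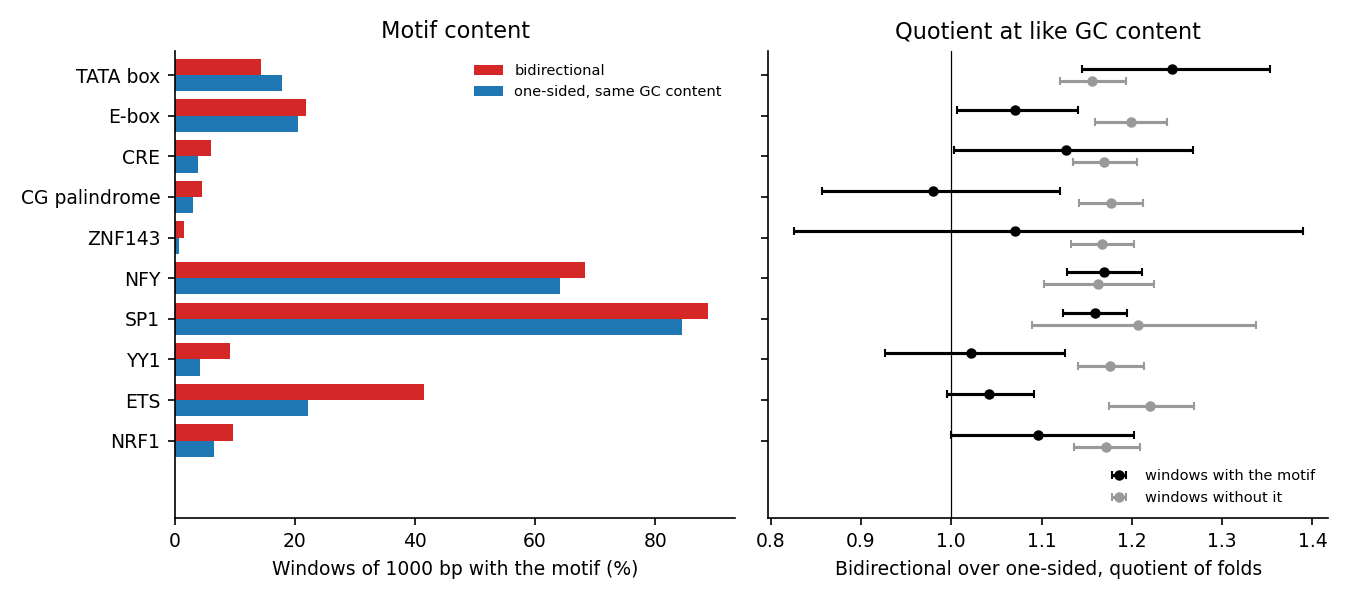
Share of promoters with each of 10 motifs (left, percent) and quotient of bidirectional over one-sided folds with and without the motif (right, with 95% intervals for counting error). ETS is in 41.5% of bidirectional regions and 22.1% of one-sided promoters of like GC content, and the quotient is 1.04 with it and 1.22 without.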

How the data were processed

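The deposited files list every read of 36 bp that the authors placed on mm9, with a mapping quality score, and apart from these the reads that fall in the intervals of their peak detection, and the submitters' processing notes name CASAVA 1.4, BWA and Partek 6.6. No reads of a library shared 5′ end and strand. A quality of 25 or higher was required, which 80.0% of the Zfp322a ChIP reads and 80.1% of the IgG reads had, and reads were counted with Python 3.11.15, numpy 2.4.6, pandas 2.3.3 and scipy 1.17.1. TSSs were the outermost 5′ ends in GENCODE vM1 for the same build. The shift of 50 bp follows the distance between forward and reverse reads, and a shift of 150 bp was an alternative.

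Regions named are the 12 with the highest lower and the 4 with the lowest upper bound of the fold, found classic pairs, the highest and lowest pair of each gene list, and the highest with each motif, and other pairs were named after their values were seen. Members and lists were chosen with earlier results of these data known. An IgG height of 0 was taken as 1, and stretches within 300 bp were joined. The scripts were tested on simulated data. Other assays of the study were not analysed here. Some regions that these rules select are not reported here.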

Additional observations from a re-analysis of the deposited data

How the results depend on the processing

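Scaling by reads over 5000 bp from coding TSSs moved the pooled fold of bidirectional regions from 1.73 to 1.78. Flanks of 250 bp gave a pooled fold of 1.81. The main site call compared heights without scaling. With heights scaled by the reads far from TSSs, the limit of 3 times the IgG height was stricter. The share with a site then fell from 23.3% to 19.2%. The quotient over one-sided promoters, 1.17, became 1.11 within strata of CpG ratio, 1.11 among CpG-rich promoters alone (chosen after seeing the data) and 1.29 within strata of GC content and IgG reads. The share with a site depended most on the thresholds, with 15.4% (122 regions) at a height of at least 11, 39.8% (315) at a fold of heights of at least 2, 4.55% (36) at a fold of at least 9, and 19.1% with reads extended to 200 bp. The share at least 2-fold higher became 12.4% (92 regions) at a fold of at least 3. Stricter or looser limits set these counts by construction; for the other changes the cause was not tested.

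The other alternatives moved these 4 results by less than their intervals, 5 for the pooled fold, 9 for the quotient, 4 for the share with a site and 7 for the share at least 2-fold higher. They included reads of any mapping quality, autosomes only, pairs up to 300 bp apart and a shift of 150 bp, which was added after seeing the data. No paired analysis was possible because each antibody has 1 library, and no replicate was left out for the same reason. At this depth a region holds at most 54 Zfp322a reads, so most single pairs cannot be told from a fold of 1.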
